A study of Mus musculus with 12 samples.

Results

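Integrins and laminins are the cell surface receptors and the basement membrane proteins through which cells hold on to each other and to the matrix. The 37 genes described here are all genes whose symbols follow the pattern of an integrin alpha chain (Itga), an integrin beta chain (Itgb1 to Itgb8) or a laminin chain (Lama, Lamb, Lamc). They comprise 18 alpha chains, 8 beta chains and 11 laminin chains, of 30327 genes listed in the table that compares diets and 30453 in the table that compares treatments. All 37 are in both tables.

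An integrin is a pair of 1 alpha and 1 beta chain, and the pairing sets what it binds. The chains that pair with Itgb2 or Itgb7 are mostly made by white blood cells, which use them to leave the blood and to take up particles. Those that pair with Itgb1 or with the alpha v chain bind collagen, laminin, fibronectin or vitronectin on stromal, vascular and many other cells. A laminin is a trimer of an alpha, a beta and a gamma chain, and it forms the sheet that surrounds each adipocyte and lies under the endothelium of blood vessels.

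RNA was sequenced from gonadal white fat of C57BL/6N mice, 3 libraries in each of 4 groups. Chow mice ate regular chow and HFD mice a high-fat diet for 18 weeks from an age of 6 weeks, and the labels give no injection for either. HFD Vehicle mice were made obese on the same high-fat diet and then received 30% DMSO in corn oil into the peritoneum once daily for 4 days. HFD PCN mice, obese likewise, received PCN at 50 mg/kg on the same schedule. PCN, or pregnenolone 16alpha-carbonitrile, is known as an activator of the pregnane X receptor of rodents, a sensor of foreign compounds. Nothing in the labels ties each library to its own animal, and the p-values below therefore reflect the spread among these libraries, part of which may be technical.

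Total counts ranged from 11090117 to 27408092 per library. The source label names duodenum, while the series title names the fat depot: the adipocyte gene Fabp4 lay between 2814 and 8084 CPM in all 12 libraries, and the intestinal epithelial gene Epcam reached at most 0.299 CPM. The 4 intestinal markers in both tables, Epcam among them, summed to 32.2 to 50.9 CPM in Chow and 8.88 to 9.71 CPM in HFD. Most of this was Lgals4, with 405, 418 and 434 counts in Chow 8, 17 and 19. Levels are CPM, counts scaled to a common library size with TMM over all 12 libraries, and values after ± are SDs over the 3 libraries of a group. Differences are log2 fold changes from edgeR, and a gene was called at an adjusted p below 0.05. Standard errors (SE) were derived as the absolute log2 fold change divided by the square root of the F statistic of the edgeR test. HFD Vehicle 50 differed from the other vehicle libraries: of the 27 integrin and laminin genes called for diet, 24 lay nearer the Chow mean than the HFD mean in it, against 4 in HFD Vehicle 23 and 7 in HFD Vehicle 55. Mitochondrial ribosomal RNA took 6.05% to 28.7% of counts in Chow and 1.40% to 1.79% in HFD, and with mitochondrially encoded genes left out 13 members were called higher and 15 lower for diet. It took 7.49% in HFD Vehicle 50, the library with the fewest counts, against 2.54% in HFD Vehicle 23 and 2.09% in HFD Vehicle 55.

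Diet was compared first, uninjected HFD against Chow. Most leukocyte integrin chains rose (6 of 8, while Itgae fell and Itgal did not pass), chains that bind laminin fell, those that bind collagen mostly fell, chains that bind tenascin or the RGD motif (arginine, glycine, aspartate) of fibronectin and vitronectin rose moderately or did not pass, and most laminin chains fell. Of 35 members that passed the filter on low counts, 13 rose and 14 fell, and 8 did not pass the test. Over all 16216 genes tested 29.8% rose and 30.0% fell, 59.8% in all, so a large number of called genes is not particular to these families. At an unadjusted p below 0.05 the counts were 27 members and 64.2% of all genes. Chow and HFD libraries were fully separated in 13 members that were higher and 14 that were lower, against 34.6% and 33.9% of all genes tested, 68.5% in all. The median log2 fold change was 2.43 over the 8 leukocyte chains, 0.02 over 17 other integrin chains and -0.76 over 10 laminin chains, and -0.03 over all genes tested. Each library holds RNA of whole tissue, so fewer cells of a type and less RNA per cell cannot be told apart.

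**Figure D1:**
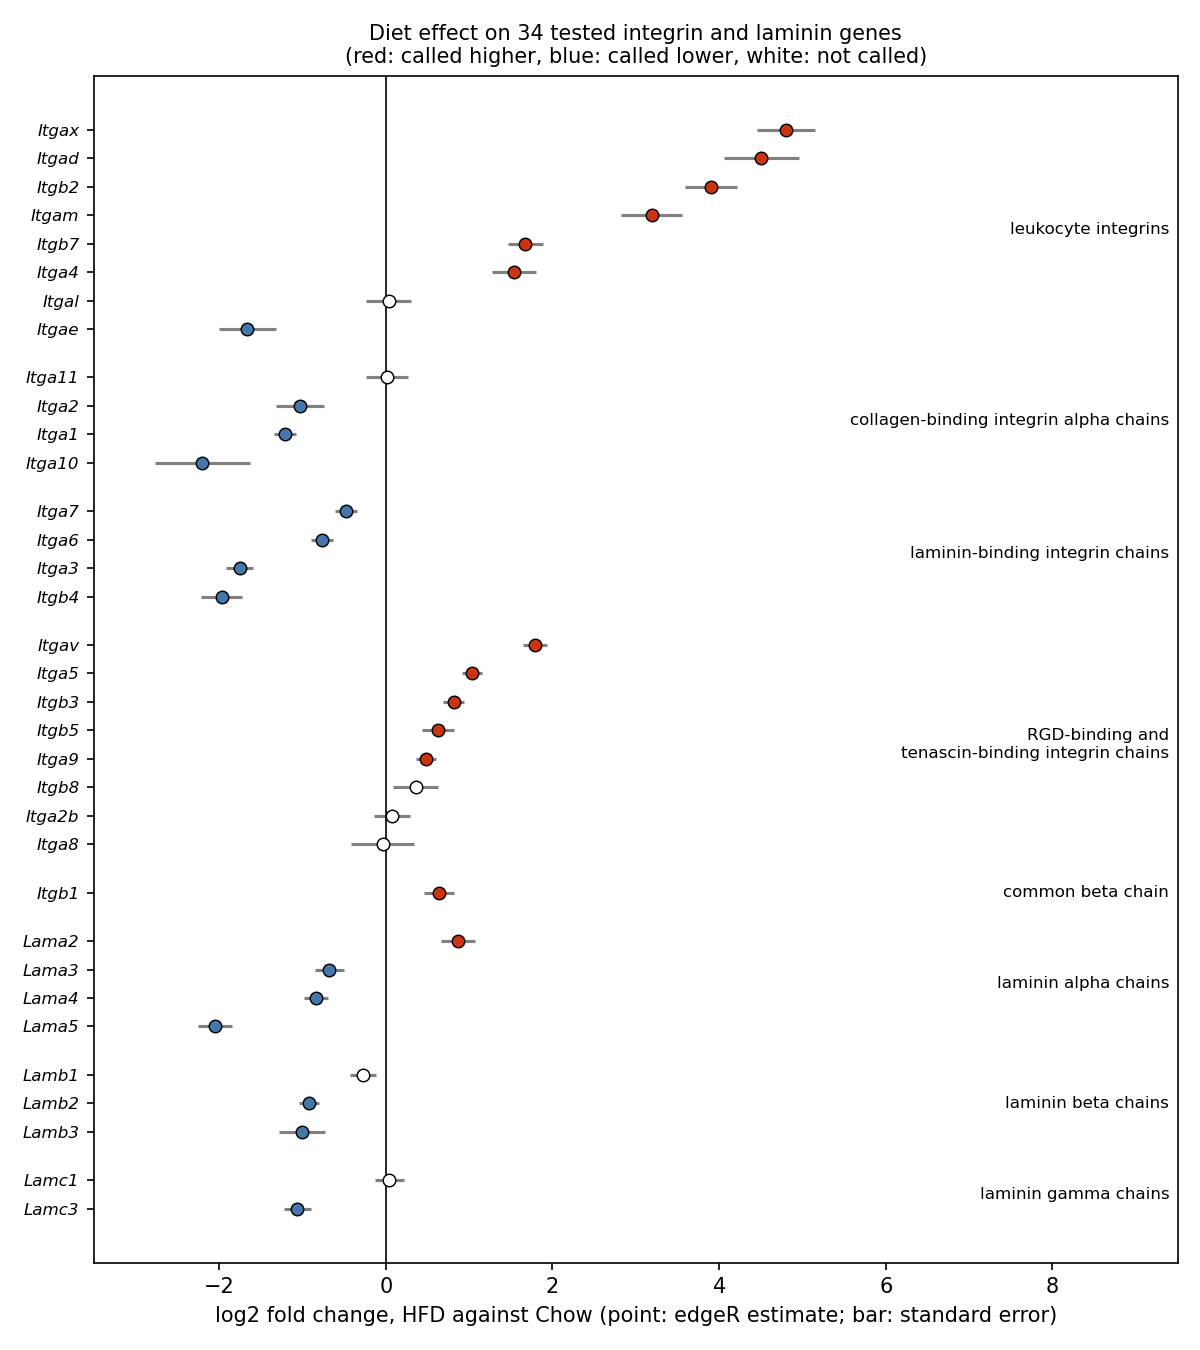
Log2 fold change of HFD against Chow (horizontal axis) for 34 integrin and laminin genes that passed the filter on low counts, grouped by role. Points are edgeR estimates, bars standard errors, red points genes called higher, blue points genes called lower and white points genes not called at an adjusted p below 0.05. Itgax, at 4.80, lies farthest to the right and Itga10, at -2.20, farthest to the left.

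Among leukocyte integrins 6 of 8 chains rose, where 29.8% of all genes tested rose. Itgb2 (ENSMUSG00000000290, chromosome 10, 77530252 to 77565708, GRCm38) encodes CD18, the beta chain shared by the alpha L, M, X and D chains. It was at 70.3, 53.9 and 28.1 CPM in Chow 8, 17 and 19 and at 837, 701 and 806 CPM in HFD 4, 30 and 38. Every HFD library was far above every Chow library (log2 fold change 3.91 with an SE of 0.31, adjusted p = 3.14e-05 by edgeR). Itgax (ENSMUSG00000030789, chromosome 7, 128129547 to 128150657) encodes CD11c, the alpha X chain of dendritic cells and of macrophages in obese fat. It was at 32.5, 15.8 and 12.3 CPM in Chow 8, 17 and 19 and at 599, 571 and 571 CPM in HFD 4, 30 and 38. This was the largest rise of the members tested (log2 fold change 4.80 with an SE of 0.34, adjusted p = 2.01e-05 by edgeR).

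Itgad (ENSMUSG00000070369, chromosome 7, 128154376 to 128223816) encodes CD11d, an alpha chain of tissue macrophages. It was at 4.18, 2.56 and 0.342 CPM in Chow 8, 17 and 19 and at 63.98, 65.6 and 46.7 CPM in HFD 4, 30 and 38 (log2 fold change 4.50 with an SE of 0.45, adjusted p = 8.55e-05 by edgeR). Itgam (ENSMUSG00000030786, chromosome 7, 128062640 to 128118491) encodes CD11b, which with CD18 forms the complement receptor of myeloid cells. It was at 13.5, 4.25 and 5.02 CPM in Chow 8, 17 and 19 and at 76.2, 72.8 and 67.3 CPM in HFD 4, 30 and 38 (log2 fold change 3.19 with an SE of 0.37, adjusted p = 1.69e-04 by edgeR). Neither gene overlapped between diets, but both are uncertain in level. Of the exon bases of Itgam 68.7% are shared with the predicted gene Gm49368, which had 0 to 2 counts in every library, and 19.7% of those of Itgad lie in other genes. The sources used here do not give how reads in shared bases were counted.

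Itgal (ENSMUSG00000030830, chromosome 7, 127296260 to 127335138) encodes CD11a, the alpha L chain of lymphocytes and other leukocytes, and did not pass the test although its partner chain rose. It was at 6.72, 9.61 and 6.62 CPM in Chow 8, 17 and 19 and at 9.93, 5.44 and 8.89 CPM in HFD 4, 30 and 38. The groups overlapped (log2 fold change 0.03 with an SE of 0.27, adjusted p = 0.922 by edgeR). These 4 alpha chain genes lie on 1 strand of chromosome 7, with 727501 bases between Itgal and Itgam, 11055 between Itgam and Itgax and 3718 between Itgax and Itgad.

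The upstream sequences of Itgam and Itgax, neighbours that both rose, are printed with that of Lama5, the laminin chain with the largest fall among those tested. Each is 200 bases that end 10 bases before the start given by RefSeq (GRCm38.p6), read 5′ to 3′ on the gene's strand. The letters GAGGAA or their reverse complement, a core bound by ETS factors such as PU.1 of myeloid cells, are in capitals. The windows are chr7:128062430-128062629 on the plus strand, chr7:128129340-128129539 on the plus strand and chr2:180225870-180226069 on the minus strand.
Itgam: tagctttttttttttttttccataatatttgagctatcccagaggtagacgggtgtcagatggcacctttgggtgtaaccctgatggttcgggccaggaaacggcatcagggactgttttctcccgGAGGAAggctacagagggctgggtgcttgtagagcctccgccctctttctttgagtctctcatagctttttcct
Itgax: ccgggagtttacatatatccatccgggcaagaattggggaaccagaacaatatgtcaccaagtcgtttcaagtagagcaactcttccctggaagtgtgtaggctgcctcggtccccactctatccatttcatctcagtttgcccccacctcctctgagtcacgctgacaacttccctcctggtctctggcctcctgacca
Lama5: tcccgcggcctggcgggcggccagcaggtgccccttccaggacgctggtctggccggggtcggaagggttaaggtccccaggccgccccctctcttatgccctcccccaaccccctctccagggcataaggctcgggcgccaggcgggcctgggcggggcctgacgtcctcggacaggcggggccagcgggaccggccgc
The letters occur 1 time in the Itgam window and not in the other windows printed. They occur in 18.9% of 32851 windows of the same length. Of the 23 members with a RefSeq entry in the table used, 9 hold them in a window. This is a count by gene over 26 windows, unlike the share by window. Among leukocyte integrins with an entry they occur for Itgam and not for Itga4, Itgax or Itgb7. Chains that fell or were not called for diet, such as Lamb2 and Itga2b, also hold them. The Lama5 window is 76.0% G and C with 18 CG dinucleotides, against 49.0% and 5 for Itgam and 52.5% and 5 for Itgax.

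Itga4 and Itgb7 encode the chains of the receptor that guides lymphocytes to gut vessels, and Itga4 also pairs with Itgb1 to bind VCAM. Itga4 was at 53.1, 52.2 and 23.3 CPM in Chow 8, 17 and 19 and at 133, 126 and 126 CPM in HFD 4, 30 and 38 (log2 fold change 1.54 with an SE of 0.27, adjusted p = 0.00146 by edgeR). Itgb7 was at 10, 7.77 and 5.14 CPM in the same Chow libraries and at 27.9, 22.9 and 25.3 CPM in the HFD libraries (log2 fold change 1.68 with an SE of 0.21, adjusted p = 2.71e-04 by edgeR). Both rose without overlap. Itgae, which encodes CD103, the partner of Itgb7 on intraepithelial T cells and some dendritic cells, went the other way. It had 25, 32 and 32 counts in Chow 8, 17 and 19 and 18, 27 and 17 in HFD 4, 30 and 38 despite the larger HFD libraries, or 2.69 ± 0.900 against 0.865 ± 0.185 CPM (log2 fold change -1.66 with an SE of 0.34, adjusted p = 0.00348 by edgeR). With all 12 libraries in one fit Itgae was not called, with an adjusted p of 0.0749 by edgeR.

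**Figure D2:**
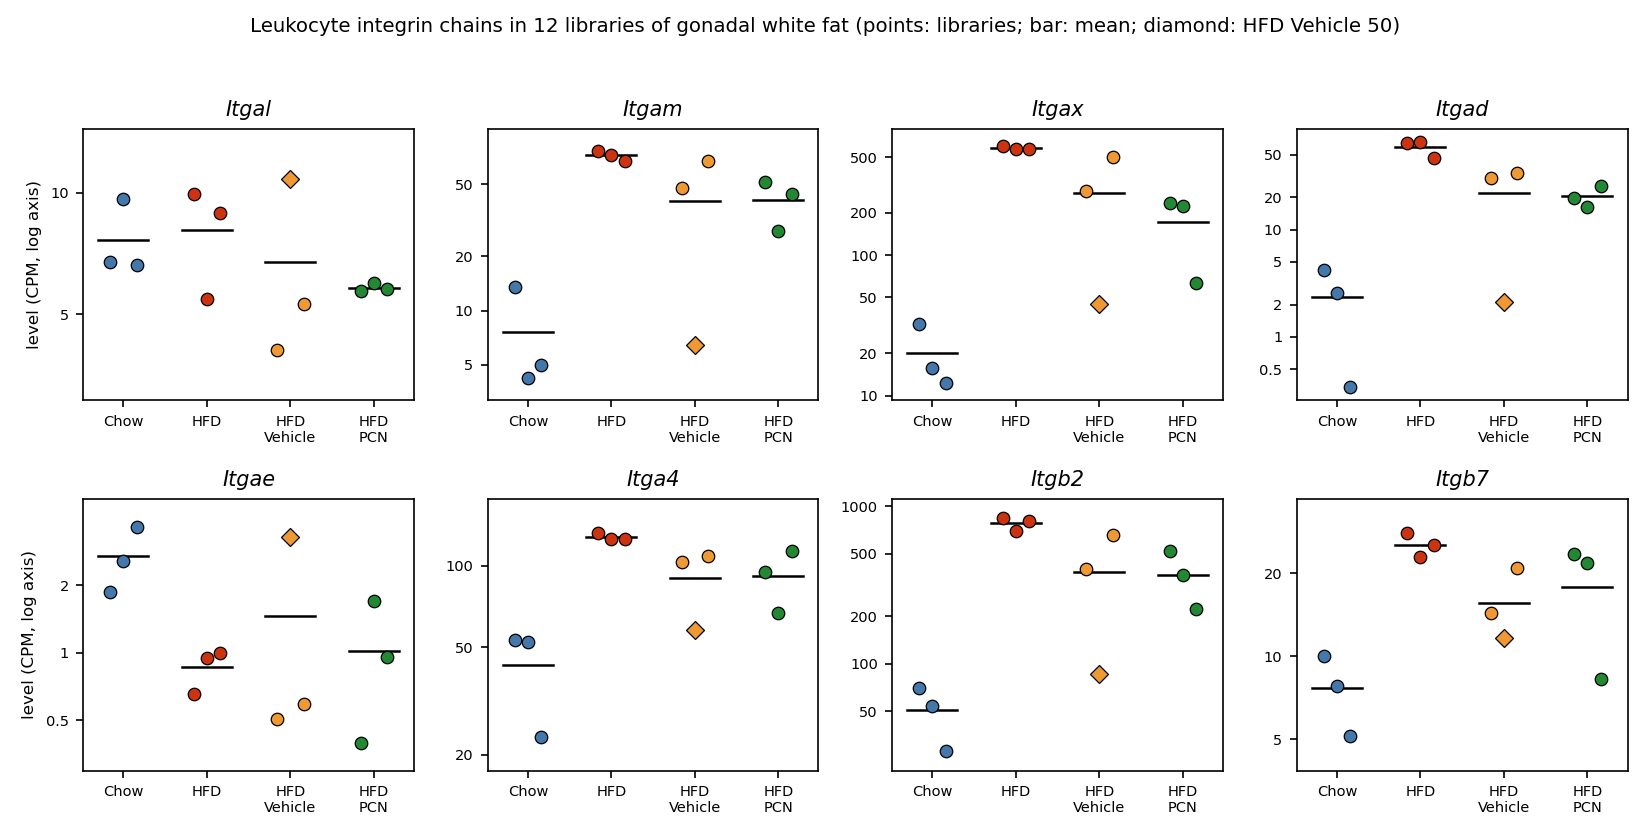
Level in CPM (log axis, each panel with its own range) of the 8 leukocyte integrin chains in each of 12 libraries, by group. Points are libraries, bars group means, and the diamond is HFD Vehicle 50. Itgax lies between 12.3 and 32.5 CPM in Chow and between 571 and 599 CPM in HFD, while Itgal overlaps between these groups.

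Markers of macrophages and mast cells mostly rose beside these chains, while 29.8% of all genes tested rose and 30.0% fell. Other lists of immune cell markers were mixed or mostly did not pass. All 6 macrophage markers rose, and their summed level was 403 to 1171 CPM in Chow and 5784 to 6526 CPM in HFD. Of 5 dendritic cell markers 2 rose and 2 fell, with sums of 63.2 to 83.3 against 30.8 to 36.2 CPM. Most of these sums, and of their fall, came from 1 gene, Zbtb46. It had 650, 926 and 641 counts in Chow 8, 17 and 19, where no other marker of the list exceeded 84 counts. In HFD 4, 30 and 38 it had 612, 569 and 345 counts, in larger libraries. Its level per kilobase of exon, a unit unlike that of the sums, was 5.70, 8.72 and 8.60 CPM in these Chow libraries. In the HFD libraries it was 2.61, 2.35 and 2.37 CPM. Of 5 T cell markers 0 passed edgeR and 1 had an unadjusted p below 0.05, with sums of 3.96 to 7.53 against 4.35 to 15.4 CPM. Mast cell markers rose in 3 of 4 cases, with sums of 19.3 to 31.7 against 178 to 240.3 CPM. Neutrophil markers rose in 1 of 4 cases, with sums of 6.73 to 17.8 against 16.8 to 20.3 CPM, and B cell markers in 1 of 3 tested. No gene of these lists that is in both tables was at 0 throughout either group. The part of these cells in the rise of the integrins was not tested.

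Laminin-binding integrin chains fell in 4 of 4 cases, where 30.0% of all genes tested fell. Itgb4, which anchors epithelia through hemidesmosomes and is also found on endothelium and nerve sheath cells, was at 10.4, 12.5 and 17.8 CPM in Chow 8, 17 and 19 and at 3.23, 4.25 and 3.04 CPM in HFD 4, 30 and 38 (log2 fold change -1.97 with an SE of 0.25, adjusted p = 2.78e-04 by edgeR). Itga3, an epithelial laminin receptor chain, was at 24.6, 19.3 and 28.8 CPM in the Chow libraries and at 6.996, 7.79 and 7.19 CPM in the HFD libraries (log2 fold change -1.75 with an SE of 0.17, adjusted p = 6.68e-05 by edgeR). Both fell without overlap. Itga6, a laminin receptor of endothelium and epithelia that pairs with Itgb1 or Itgb4, was at 296 ± 47.3 CPM in Chow and 179 ± 5.35 CPM in HFD (log2 fold change -0.76 with an SE of 0.13). Itga7, best known from muscle, was at 202 ± 32.5 and 149 ± 7.12 CPM (log2 fold change -0.48 with an SE of 0.13, adjusted p = 0.0128 by edgeR). Its adjusted p by edgeR was 0.067 without HFD 30 and 0.0646 without HFD 38, and 0.258 with all 12 libraries in one fit.

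Of 4 collagen-binding alpha chains 3 fell, where 30.0% of all genes tested fell. Itga1 (ENSMUSG00000042284, chromosome 13, 114953096 to 115101964), a collagen receptor of stromal, smooth muscle and endothelial cells, was at 264, 231 and 194 CPM in Chow 8, 17 and 19 and at 103, 95.3 and 106 CPM in HFD 4, 30 and 38. The groups lay well apart (log2 fold change -1.21 with an SE of 0.13, adjusted p = 1.25e-04 by edgeR). Itga10, a collagen receptor of cartilage, was at 2.46, 12.7 and 6.16 CPM in Chow and at 1.16, 1.33 and 2.40 CPM in HFD, with 33.5% of its exon bases shared with Gm42957. It fell (log2 fold change -2.20 with an SE of 0.57, adjusted p = 0.0106 by edgeR), though Chow 17 carried much of the size, with a log2 fold change of -1.43 without that library. Itga2, a collagen receptor of platelets and epithelia, was at 3.29 ± 1.10 against 1.66 ± 0.200 CPM (log2 fold change -1.03 with an SE of 0.29, adjusted p = 0.0144 by edgeR). That adjusted p was 0.0656 without HFD 30 and 0.0562 without HFD 38, again by edgeR. Itga11, the collagen receptor of fibroblasts, was at 14.4 ± 4.41 and 15.04 ± 3.60 CPM and did not pass (log2 fold change 0.02 with an SE of 0.25).

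Chains that bind the RGD motif or tenascin went the other way, with 5 of 8 tested rising and 0 falling. The shares of all genes tested were 29.8% and 30.0%. Itgav (ENSMUSG00000027087, chromosome 2, 83724397 to 83806916) encodes the alpha v chain of the vitronectin receptors, which also bind osteopontin. It was at 88.5, 73.3 and 62.1 CPM in Chow 8, 17 and 19 and at 261, 274 and 259 CPM in HFD 4, 30 and 38, with no overlap (log2 fold change 1.79 with an SE of 0.14, adjusted p = 2.82e-05 by edgeR). Of its beta partners, Itgb3 was at 11.6 ± 0.941 CPM in Chow and 20.9 ± 1.89 CPM in HFD (log2 fold change 0.82 with an SE of 0.13). Itgb5 was at 170.1 ± 46.1 and 269 ± 8.57 CPM (log2 fold change 0.63 with an SE of 0.19, adjusted p = 0.0195 by edgeR). The call of Itgb5 by edgeR was lost without HFD 30 (adjusted p = 0.0565) or HFD 38 (0.0541). Itga5, the alpha chain of the fibronectin receptor, was at 57.9 ± 5.21 and 121 ± 10.7 CPM (log2 fold change 1.03 with an SE of 0.12). Itga9, which binds tenascin, was at 33.8 ± 3.49 and 48.5 ± 3.78 CPM (log2 fold change 0.49 with an SE of 0.12). Both rose.

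Itga2b, the partner of Itgb3 on platelets, did not pass (log2 fold change 0.07 with an SE of 0.22). Itga8, the receptor of nephronectin, did not pass either (log2 fold change -0.04 with an SE of 0.38), nor did Itgb8, which with the alpha v chain releases active TGF-beta (log2 fold change 0.36 with an SE of 0.27). Itgb6, the epithelial partner of the alpha v chain, had 2 counts in Chow 8 and 0 in the other Chow and HFD libraries, so no fold is given. Itgb1, the beta chain common to most stromal integrins, was at 597, 446 and 367 CPM in Chow 8, 17 and 19 and at 763, 721 and 765 CPM in HFD 4, 30 and 38. It rose (log2 fold change 0.64 with an SE of 0.18, adjusted p = 0.0157 by edgeR), with an adjusted p by edgeR of 0.0514 without HFD 38 and of 0.067 in the fit of all 12 libraries.

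Levels of different genes were set side by side per kilobase of exon. All annotated exons of a gene were counted, so such comparisons between genes are approximate. On this scale the order of the beta chains differed between diets. In Chow, Itgb1 led with 115 ± 28.6 CPM per kb, Itgb5 followed with 47.9 ± 12.96 and Itgb2 with 16.6 ± 6.98 CPM per kb. In HFD, Itgb2 led with 256 ± 23.3 CPM per kb, ahead of Itgb1 with 184 ± 6.06 and Itgb5 with 75.7 ± 2.41 CPM per kb, and the alpha chain Itgax stood at 121 ± 3.40 CPM per kb. The libraries of Itgb2 and Itgb1 did not overlap within either diet. Itgb2 made up 8.65 ± 1.80% of the summed beta chain level in Chow and 48.4 ± 1.90% in HFD, and Itgb1 61.9 ± 2.39% and 34.8 ± 0.761%. These shares describe the same libraries as the test above and are not a second test.

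Most laminin chains were lower in HFD, and Lama2 was the exception that rose. Lama5 (ENSMUSG00000015647, chromosome 2, 180176373 to 180225859) encodes the alpha chain of mature endothelial and epithelial basement membranes. It was at 128, 186 and 222 CPM in Chow 8, 17 and 19 and at 39.3, 45.4 and 48.2 CPM in HFD 4, 30 and 38, with no overlap (log2 fold change -2.05 with an SE of 0.21, adjusted p = 8.96e-05 by edgeR). Lama4, the alpha chain of adipocyte and vessel basement membranes, was at 501, 520.0 and 387 CPM in the Chow libraries and at 280.4, 276 and 251 CPM in the HFD libraries (log2 fold change -0.84 with an SE of 0.15, adjusted p = 0.0015 by edgeR). Lama3, the alpha chain of epithelial laminin, fell from 36.5 ± 7.34 to 23.4 ± 4.10 CPM (log2 fold change -0.68 with an SE of 0.18, adjusted p = 0.0105 by edgeR).

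Lama2 (ENSMUSG00000019899, chromosome 10, 26980036 to 27619758), the alpha chain best known from muscle and nerve, was at 266, 232 and 146 CPM in Chow 8, 17 and 19 and at 399.8, 421 and 385 CPM in HFD 4, 30 and 38. It rose without overlap (log2 fold change 0.87 with an SE of 0.20, adjusted p = 0.00667 by edgeR). Lama1, the alpha chain of the early embryo, had 9, 47 and 52 counts in Chow 8, 17 and 19 and 8, 6 and 4 counts in HFD 4, 30 and 38 and did not pass the filter on low counts. Without that filter it was called lower. The alpha chains were also compared per kilobase of exon, with the limit given for the beta chains. Lama2 took 18.2 ± 4.10% of the summed alpha chain level in Chow and 46.4 ± 0.452% in HFD. Lama4 took 54.2 ± 3.50% and 42.1 ± 1.30%, and Lama5 22.3 ± 7.62% and 7.36 ± 0.972%.

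Of the beta chains, Lamb2, a chain of mature vessel and muscle laminins, fell from 332 ± 25.9 to 179.6 ± 12.9 CPM (log2 fold change -0.92 with an SE of 0.12). Lamb3, of epithelial laminin, was at 13.3 ± 5.49 and 6.85 ± 0.418 CPM, and its fall of about 1 log2 unit (SE 0.27, adjusted p = 0.0132 by edgeR) had an adjusted p of 0.0535 without HFD 4 and of 0.0869 in the fit of all 12 libraries. Lamb1, the widespread beta chain, was at 363 ± 67.6 and 308 ± 4.55 CPM and did not pass (log2 fold change -0.27 with an SE of 0.15, adjusted p = 0.156 by edgeR), but was called lower without Chow 19 (log2 fold change -0.37, adjusted p = 0.0307 by edgeR). Of the gamma chains, Lamc1, which is part of most laminins, was at 580.5, 604 and 408 CPM in Chow 8, 17 and 19 and at 596, 584 and 504 CPM in HFD 4, 30 and 38, so the groups overlapped (log2 fold change 0.04 with an SE of 0.18). Lamc3, a minor gamma chain, fell from 27.2 ± 2.83 to 13.4 ± 2.57 CPM (log2 fold change -1.06 with an SE of 0.16, adjusted p = 7.45e-04 by edgeR), but was not called in the fit of all 12 libraries (adjusted p = 0.0625, again by edgeR).

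**Figure D3:**
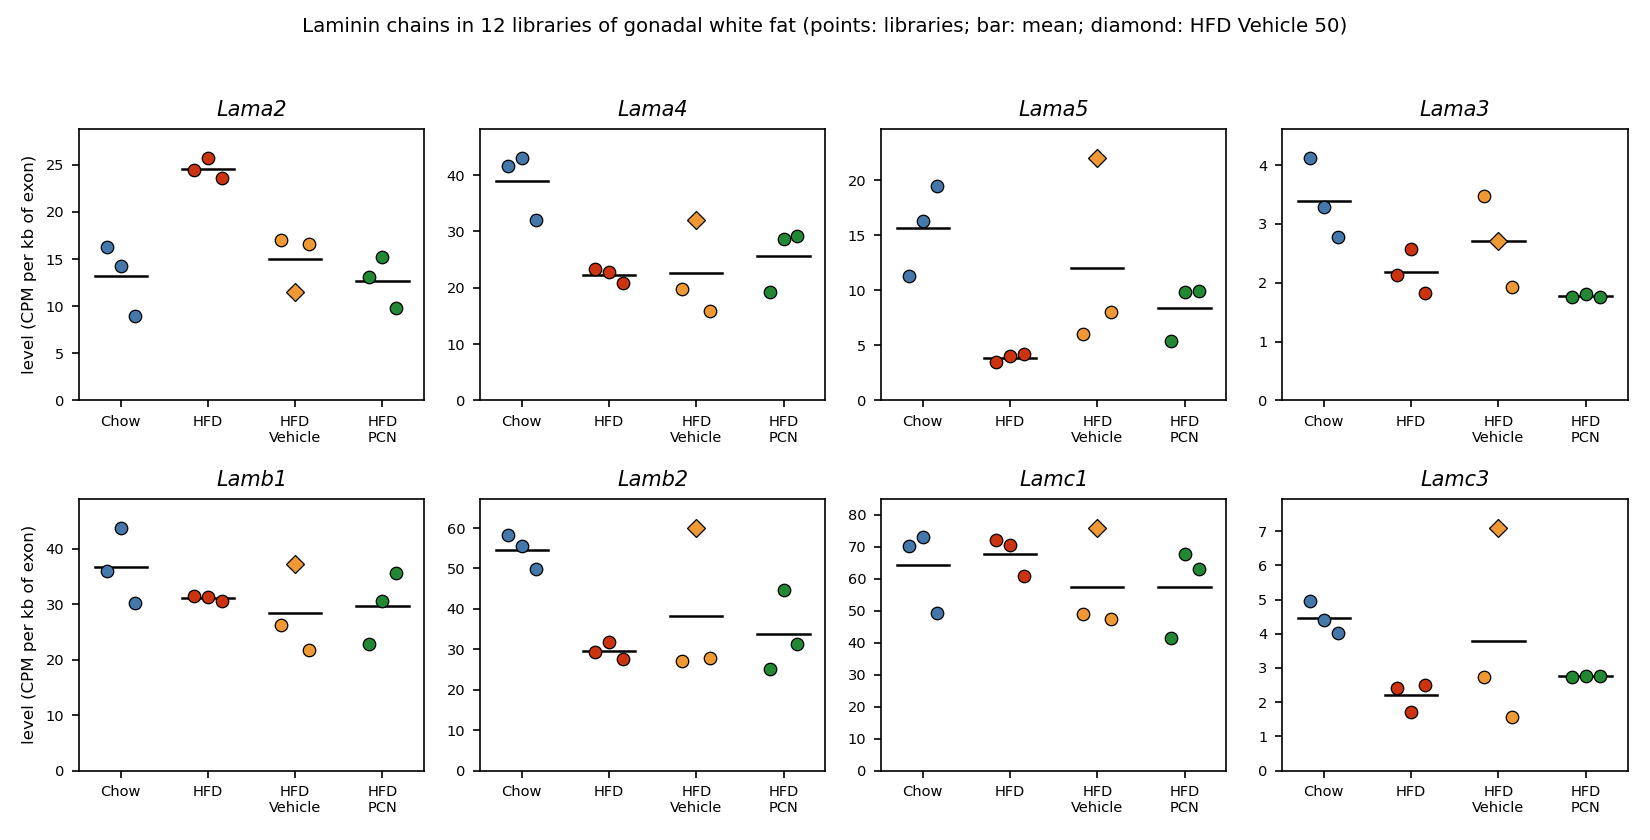
Level in CPM per kilobase of exon (vertical axis, from 0) of 8 laminin chains in each of 12 libraries, by group. Points are libraries, bars group means, and the diamond is HFD Vehicle 50. Lama5 lies between 11.3 and 19.5 in Chow and between 3.45 and 4.24 in HFD, Lama2 is higher in HFD than in Chow, and Lamc1 overlaps.

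Vascular and stromal markers moved beside these chains, while 29.8% of all genes tested rose and 30.0% fell. All 6 endothelial markers fell, with summed levels of 1008 to 1103 CPM in Chow and 369 to 387 CPM in HFD. Of 5 markers of pericytes and smooth muscle 3 fell, with sums of 679 to 975 against 368 to 381 CPM. Of 6 markers of progenitors and fibroblasts 4 rose, with sums of 1602 to 2959 against 7697 to 8951 CPM. Of 6 adipocyte markers 5 fell, with sums of 12525 to 17967 against 6418 to 8056 CPM. No gene of these 4 lists was at 0 throughout either group. Their part in the laminin and integrin changes was not tested.

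Among genes that work with integrins, 11 of 18 kinases and regulators of integrin signalling rose and 4 fell. Over all genes tested for diet 29.8% rose and 30.0% fell, 59.8% in all. Skap2, an adaptor of leukocyte integrin activation, rose from 56.8 ± 5.14 to 161 ± 3.73 CPM. Fyb, another such adaptor, rose from 19.8 ± 3.83 to 93.7 ± 8.56 CPM, where 10.2% of exon bases lie in other genes. Of 17 tested talin, kindlin and parvin adaptors, which tie integrins to actin, 6 rose and 8 fell. Fermt3, the kindlin of blood cells, rose from 24.7 ± 7.76 to 180.3 ± 3.39 CPM. Tns1, a tensin, fell from 3332 ± 184 to 771 ± 27.9 CPM and Lims2, a partner of integrin-linked kinase, from 204 ± 6.55 to 76.1 ± 4.25 CPM.

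Among matrix ligands of integrins 4 of 11 tested rose and 3 fell. The shares to set beside this and the other counts of this paragraph are 29.8% and 30.0% of all genes, 59.8% in all. Spp1 (osteopontin, with 18.8% of its exon bases in another gene) had a log2 fold change of 7.15 (SE 0.39) and Postn (periostin) of 2.06 (SE 0.29), while Npnt (nephronectin) fell from 3.01 ± 0.461 to 0.393 ± 0.208 CPM. Of 7 tested ligands of leukocyte integrins 2 rose and 3 fell. Vcam1, the ligand of the alpha 4 chain on vessels, rose from 36.6 ± 8.30 to 81.5 ± 18.3 CPM, whereas the junctional ligands F11r and Jam2 had log2 fold changes of -1.61 and -0.78. Of 11 basement membrane partners of laminin 5 fell and 1 rose: Col4a3 and Col4a4, chains of a specialised type IV collagen, had log2 fold changes of -3.54 and -3.41 and Agrn (agrin) of -1.35. Of 6 tested genes listed with other laminin receptors, some of them partner proteins and not receptors themselves, 3 fell and 2 rose. Those named by the smallest p were the sarcoglycans Sgcd and Sgce and the adhesion molecule Bcam, with log2 fold changes of -1.85, -0.90 and -1.73.

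PCN was then compared with its vehicle. By edgeR 0 of 35 members tested passed, as did 0 of 16563 genes (0%), with 2 members and 1.70% of all genes at an unadjusted p below 0.05. DESeq2 and limma-voom called 0 members as well. In simulated data for this comparison edgeR recovered 1% of 2-fold and 47% of 4-fold changes. The lack of calls therefore does not exclude changes of these sizes. The log2 fold changes of members ran from -0.87 (Itga8, SE 0.65) to 1.64 (Itgb8), with a median of -0.05. For the leukocyte chains the errors were wide: Itgax was at 235, 223 and 63.3 CPM in HFD PCN 5, 11 and 27 and at 289, 44.9 and 499.9 CPM in HFD Vehicle 23, 50 and 55 (log2 fold change -0.67 with an SE of 0.85). Itgb2 was at 518, 365 and 222 CPM with PCN and at 399.7, 86.5 and 661 CPM with vehicle (log2 fold change -0.05 with an SE of 0.69). The groups overlapped in both genes, and no difference was detectable with this spread. Without HFD Vehicle 50 the log2 fold change was -1.19 (SE 0.53) for Itgax, -0.53 (SE 0.38) for Itgb2 and 0.00 (SE 0.46) for Itga8, and 0 members passed.

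Itgb8 (ENSMUSG00000025321, chromosome 12, 119158022 to 119238802) had the smallest p of the members. It was at 10.9, 4.18 and 8.18 CPM in HFD PCN 5, 11 and 27 and at 2.41, 3.11 and 2.03 CPM in HFD Vehicle 23, 50 and 55. All 3 PCN libraries were above all other libraries of the series, where the highest level was the 3.11 CPM of HFD Vehicle 50. The log2 fold change was 1.64 (SE 0.41), and by edgeR the unadjusted p of 0.00554, the 10th smallest of all genes tested, gave an adjusted p = 0.999857, so Itgb8 failed the correction. Its log2 fold change was 1.31 to 1.94 with any 1 library left out, and 1.81 without HFD Vehicle 50. Of the mesothelial markers, the 5 listed genes summed to 82.6, 58.05 and 45.2 CPM in HFD PCN 5, 11 and 27 and to 17.5, 50.8 and 8.91 CPM in HFD Vehicle 23, 50 and 55. The part of these cells in the Itgb8 values was not tested.

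PCN and vehicle libraries were fully separated in 1 member that was higher (Itgb8) and 2 that were lower, against 3.43% and 2.69% of all genes tested, 6.12% in all. Those lower were Lama3 (log2 fold change -0.61 with an SE of 0.24) and, named after its values were seen, Itga2b (log2 fold change -0.44 with an SE of 0.27). Lama3 was at 18.97, 19.4 and 18.8 CPM with PCN and at 37.3, 29.2 and 20.7 CPM with vehicle. Its log2 fold change was -0.37 without HFD Vehicle 23 and -0.81 without HFD Vehicle 55, and that of Itga2b was -0.23 without HFD Vehicle 50.

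**Figure D4:**
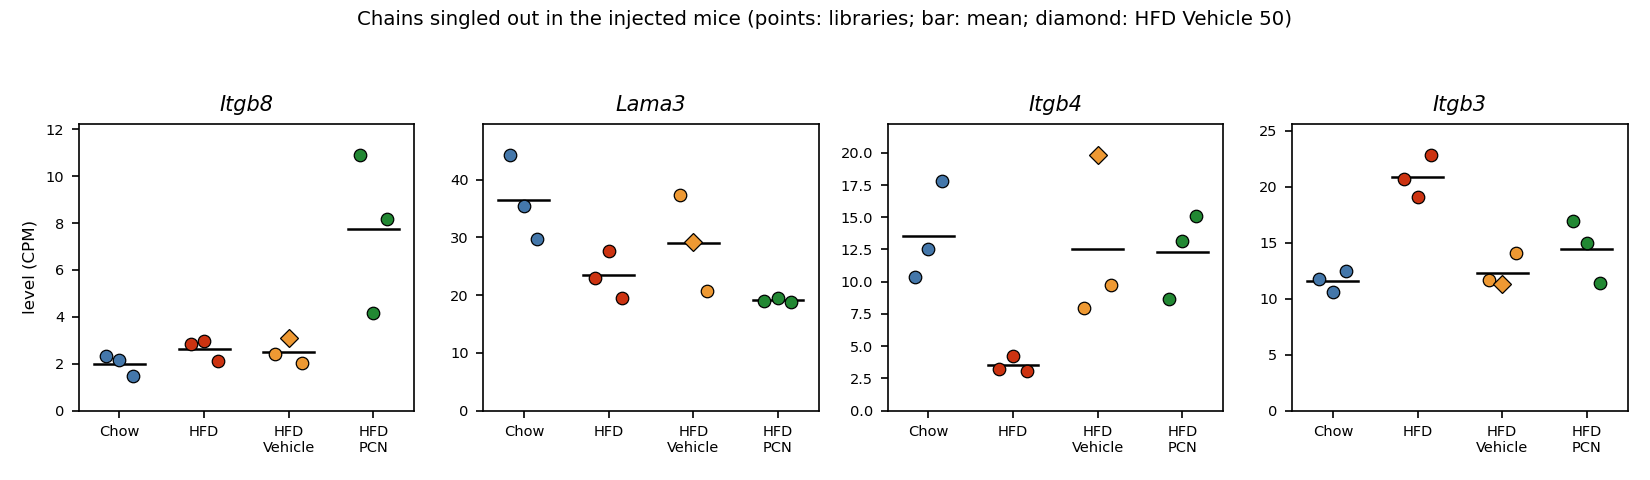
Level in CPM (vertical axis, from 0) of Itgb8, Lama3, Itgb4 and Itgb3 in each of 12 libraries, by group. Points are libraries, bars group means, and the diamond is HFD Vehicle 50. Itgb8 lies between 4.18 and 10.9 CPM in HFD PCN and at or below 3.11 CPM elsewhere, while Itgb4 is lowest in the uninjected HFD group.

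Vehicle-injected obese mice were set against uninjected ones in a fit of all 12 libraries over the 28008 genes listed in both tables. By edgeR 0 of 36 members tested passed (0% of 17304 genes passed), 8 had an unadjusted p below 0.05 (15.3% of all genes), limma-voom called 0 and DESeq2 called Itgb4, Itgb3 and Lama5. Itgb4 was at 7.96, 19.9 and 9.77 CPM in HFD Vehicle 23, 50 and 55 against 3.23, 4.25 and 3.04 CPM in HFD 4, 30 and 38, so every vehicle library was higher (log2 fold change 1.82 with an SE of 0.36, adjusted p = 0.294 by edgeR). Its log2 fold change was 1.33 without HFD Vehicle 50. Itgb3 was at 11.6, 11.3 and 14.04 CPM in the vehicle libraries against 20.7, 19.1 and 22.9 CPM in the HFD libraries, lower in every one (log2 fold change -0.76 with an SE of 0.17). Lama5 was at 68.4, 251 and 91.5 CPM in the vehicle libraries, all above HFD (log2 fold change 1.63 with an SE of 0.44), but the value was 0.85 without HFD Vehicle 50.

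Vehicle and HFD libraries were fully separated in 6 members that were higher and 10 that were lower, against 13.6% and 14.2% of all genes tested, 27.8% in all. Those lower included 6 leukocyte chains, among them Itgax, Itgad, Itgam and Itgb2 with log2 fold changes of -1.06 (SE 0.70), -1.40 (SE 0.73), -0.83 (SE 0.63) and -1.03 (SE 0.58), and 0 of these passed. Without HFD Vehicle 50 the same log2 fold changes were -0.56 (SE 0.50), -0.87 (SE 0.38), -0.33 (SE 0.38) and -0.56 (SE 0.39). Itgax averaged 278 ± 228 CPM in HFD Vehicle, or 394 CPM without HFD Vehicle 50. Beside these chains, 4 of 4 mast cell markers and 3 of 6 macrophage markers were lower in vehicle without overlap, and 0 of either list passed edgeR. Their part in the integrin values was not tested.

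PCN-treated obese mice were also set against Chow mice in the same fit, where diet and injection differ together and the Chow libraries are those of the diet comparison. It called 10 members higher and 2 lower of 36 tested, where 11.3% and 4.77% of 17304 genes were called, 16.0% in all. At an unadjusted p below 0.05 there were 16 members and 36.8% of all genes. The libraries were fully separated in 10 members that were higher and 10 that were lower, against 26.0% and 20.0% of all genes, 46.1% in all. Those called higher included 6 leukocyte chains (Itgax, Itgad, Itgb2, Itgam, Itgb7 and Itga4), with Itgb2 among those named by the smallest p (log2 fold change 2.86 with an SE of 0.62, adjusted p = 0.0239 by edgeR). The others were Itgav, Itga9, Itga5 (log2 fold change 0.69 with an SE of 0.14, adjusted p = 0.0232 by edgeR) and Itgb8 (log2 fold change 1.95 with an SE of 0.36, adjusted p = 0.0232 by edgeR). Lama1 and Lama3 fell. All 6 macrophage markers were called higher beside the leukocyte chains, and their part was not tested. Itga1 was at 167, 221 and 266 CPM in HFD PCN 5, 11 and 27, overlapping Chow, and did not pass (log2 fold change -0.08 with an SE of 0.24). With Chow 17, Chow 19, HFD PCN 5 or HFD PCN 27 left out 0 members were called. There were 7 higher and 1 lower without Chow 8 and 9 higher and 1 lower without HFD PCN 11. Limma-voom did not call Itga4, Itgad, Itgam, Itgax, Itgb7 or Lama1, and Itgb7 was also lost in edgeR with either other scaling, with no filter and on only the 6 libraries compared. With HFD Vehicle 50 left out, which belongs to neither group, 11 were higher and 9 lower.

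**Figure D5:**
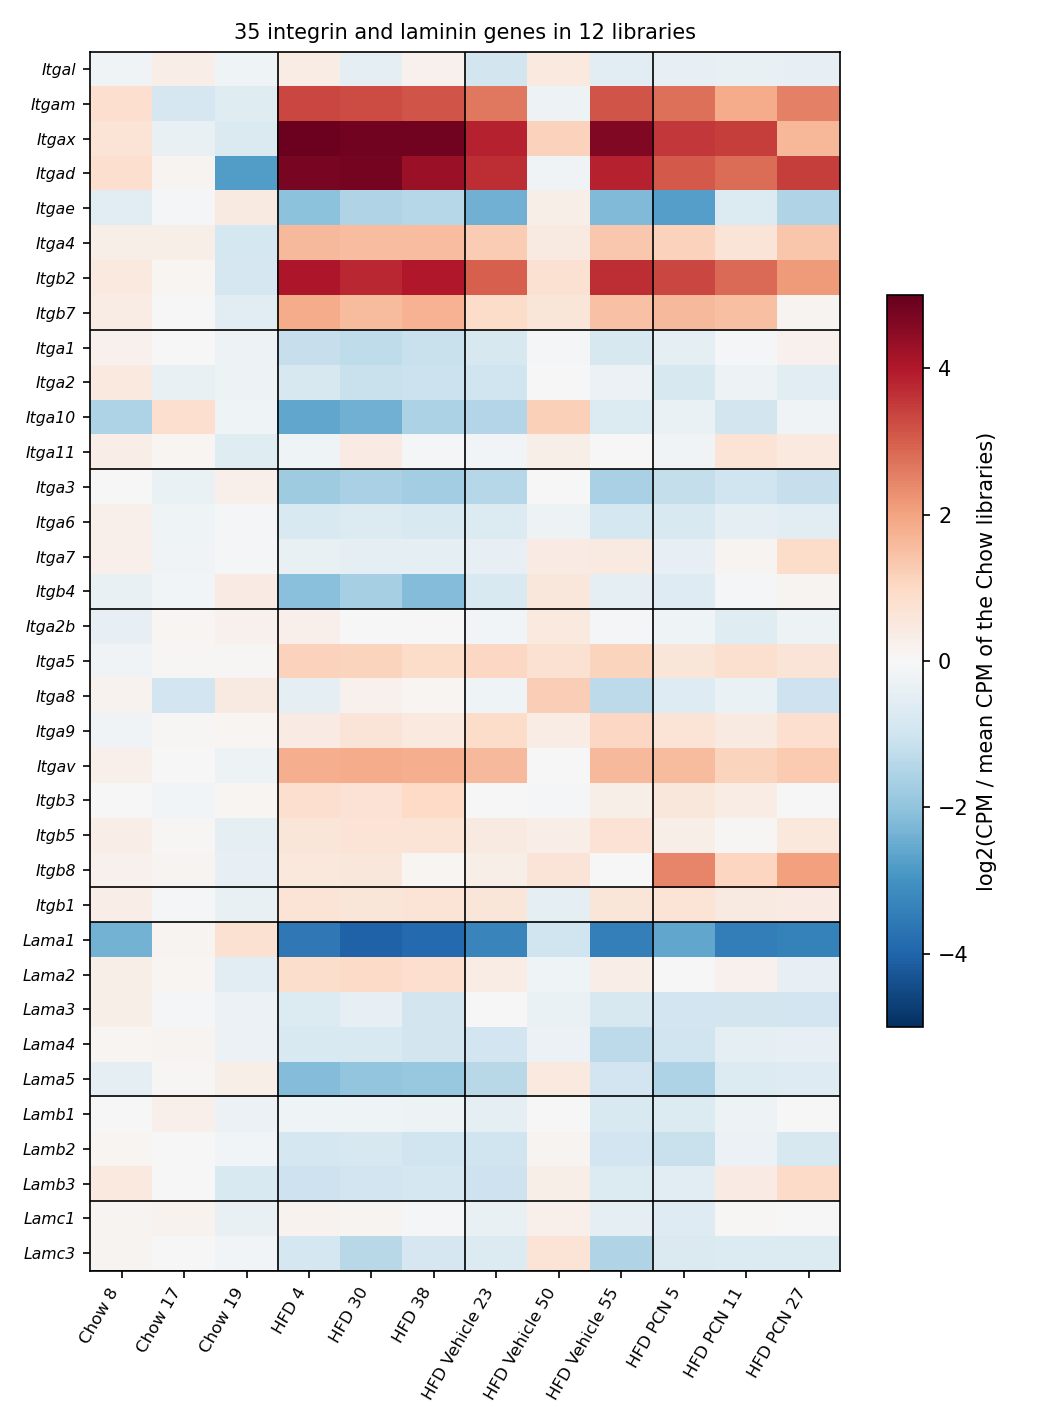
Log2 ratio of the level in each library to the mean of the Chow libraries (colour) for 35 integrin and laminin genes (rows, grouped by role) in 12 libraries (columns). Itgax, Itgad, Itgb2 and Itgam are high in the HFD libraries and lower in HFD Vehicle 50, and Itgb8 is high in the HFD PCN libraries.

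Across the injected libraries the diet pattern was present in part. Of the 27 members called for diet, 22, 14 and 17 lay nearer the HFD mean than the Chow mean in HFD PCN 5, 11 and 27, and 23, 3 and 20 in HFD Vehicle 23, 50 and 55. These members were chosen by the diet contrast, so the counts describe the injected libraries only. Lama2 averaged 207 ± 44.5 CPM in HFD PCN and 246 ± 50.5 CPM in HFD Vehicle, or 275 CPM without HFD Vehicle 50, beside 215 ± 61.9 CPM in Chow and 402 ± 17.97 CPM in HFD.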

How the data were processed

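The authors deposited raw counts of reads per gene, 6 libraries in each of 2 tables. The submitters' processing notes name HISAT2, HTSeq, DESeq2 and build GRCm38 (mm10). Versions and the strand setting are not given in the sources used here. Diet and PCN against vehicle were each fitted on the 6 libraries of their own table with edgeR 4.0.16 in R 4.3.3 (quasi-likelihood test, TMM scaling, default filter on low counts, Benjamini-Hochberg adjustment over all genes tested). The other comparisons used 1 fit of 12 libraries over genes in both tables. Library totals ranged from 11090117 to 27408092 counts, and genes with few counts are less precise. Exon lengths and overlaps come from GENCODE M21 on GRCm38, in which all 37 members had the deposited coordinates (1-based here). Genes with over 10% of exon bases in another gene are marked. Promoter windows come from RefSeq.

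Members are named for diet, and the 3 with the smallest p in the other comparisons. Folds given there for Itgax, Itgad, Itgam, Itga1, Itga2b and Itga8, and for Itgb2 apart from HFD PCN against Chow, fall outside this rule. Of each list of partner genes up to 3 called genes with the smallest p are named. Some items that these rules select are not reported here, but counts include them. The members and lists were chosen with earlier results of these data known. Alternatives were DESeq2 1.42.0, limma-voom (limma 3.58.1), other scalings and filters, leaving out mitochondrially encoded genes, other sets of libraries in the fit, and leaving out each library in turn. The 12-library fit without HFD Vehicle 50 for HFD PCN against Chow was added after seeing the data. The edgeR script was tested on simulated data. The authors' own fold changes were not used.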

Additional observations from a re-analysis of the deposited data

How the results depend on the processing

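No paired analysis was possible because each library has a number of its own. For HFD against Chow the counts of members called were 11 to 13 higher and 13 to 16 lower with 1 library left out, and 12 to 13 and 11 to 15 under the other alternatives. The 27 members called were all called by DESeq2, limma-voom, both other scalings and both other filters, and 22 of them with all 12 libraries in one fit, where Itga7, Itgae, Itgb1, Lamb3 and Lamc3 were not. Directions changed for 5 of the members reported, each of them uncalled in the fit reported. The log2 fold change was -0.0603 for Itgal, -0.022 for Itga2b, -0.0778 for Itga11 and -0.0504 for Lamc1 with upper quartile scaling, -0.0163 for Itgal and 0.0194 for Itga8 with limma-voom, and 0.0404 for Itga8 with no filter. With 1 library left out it ran from -0.131 to 0.272 for Itgal, -0.0893 to 0.214 for Itga2b, -0.351 to 0.229 for Itga8, -0.184 to 0.22 for Itga11 and -0.0909 to 0.161 for Lamc1. For HFD PCN against HFD Vehicle 0 members were called by edgeR under each scaling, filter and set of libraries tried, by DESeq2 and by limma-voom. For HFD Vehicle against HFD, DESeq2 called 2 higher and 1 lower, and the other settings 0. For HFD PCN against Chow, limma-voom called 5 higher and 1 lower, DESeq2 4 lower, and edgeR on only the 6 libraries compared 6 lower. With 1 library left out the counts ran from 0 to 11 higher and from 0 to 9 lower, the upper ends without HFD Vehicle 50. The cause was not tested. Low counts limit Itgae, Itga2, Itga8, Itga10, Lama1 and Itgb6. They also limit Itgb8 outside HFD PCN, with 13 to 84 counts per library, and Itgad in Chow 8, 17 and 19, with 56, 32 and 3 counts.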

Other observations

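Leukocyte integrin chains differed in which HFD PCN library was lowest. Itgax was at 235, 223 and 63.3 CPM and Itgb7 at 23.4, 21.8 and 8.30 CPM in HFD PCN 5, 11 and 27, with the lowest value of both in HFD PCN 27. Itgam, at 51.2, 27.5 and 43.95 CPM, Itgad, at 19.9, 16.3 and 25.7 CPM, and Itga4, at 95.1, 67.2 and 113 CPM, were instead lowest in HFD PCN 11. Itgb2 was also lowest in HFD PCN 27. Itgae and Itgal were lowest in HFD PCN 5, though Itgal was nearly level across the HFD PCN libraries. Of the macrophage markers, the surface gene Adgre1 (F4/80) was at 754, 292 and 696 CPM in the same libraries and the lysosomal gene Cd68 at 573, 267 and 283 CPM. Both were lowest in HFD PCN 11, although Cd68 was nearly as low in HFD PCN 27. In the HFD libraries Adgre1 was at 956, 948 and 909.7 CPM, beside Itgax at 599, 571 and 571 CPM.

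Itga7 was at 152, 225 and 384 CPM in HFD PCN 5, 11 and 27 and at 153, 266 and 277 CPM in HFD Vehicle 23, 50 and 55, and lay between 144 and 157 CPM in HFD. Lamb3 was at 9.01, 17.4 and 25.5 CPM in HFD PCN 5, 11 and 27 and at 6.41, 16.1 and 8.22 CPM in HFD Vehicle 23, 50 and 55. The genes of these observations were chosen after their values were seen, and 0 of them passed edgeR between the injected groups, at an adjusted or an unadjusted p below 0.05.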
